A study of Homo sapiens with 6 samples.

Results

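The genes described here drive a cell into mitosis and control its passage through it. They comprise 34 named genes for the kinase CDK1 and its cyclins, the phosphatases and kinases that switch it, the spindle checkpoint, the outer kinetochore and the cofactors of the anaphase promoting complex, together with every listed gene whose name begins with KIF or KIFC and a digit and has no hyphen. Both choices were made by gene name. All 34 named genes were listed in both deposited tables. The kinesin rule took 34 further names, of which 31 were in both tables, so 68 of the 17721 genes listed in either table were members and 65 had a value in both. One of the names taken by the rule, KIF1BP, encodes a kinesin-binding protein and not a kinesin.

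The samples came from U2OS, an established human osteosarcoma cell line, a single line used as the model throughout. The protocol describes transfection of control and knockdown cells with a plasmid for a mutant of the RNA cytosine methyltransferase NSun2, while the input samples are labelled as having no treatment. The samples were RNA inputs of control (shNC) cells and of cells carrying a hairpin against the DNA methyltransferase DNMT1 (shDNMT1), 1 of each, and RNA recovered with the NSun2 mutant from each kind of cell, 2 samples of each, 6 samples in all. The values are FPKM, fragment counts scaled to transcript length and library size, in 2 tables whose headers name no sample, so the tables are called the first and the second. Neither table was assigned to a condition, no comparison of shDNMT1 with shNC cells or of immunoprecipitate with input was made, and each gene has 1 value per table, with no replicate, SD or test.

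Entry into mitosis depends on CDK1 bound to cyclin A or B. WEE1 and PKMYT1 hold CDK1 inactive by phosphorylation, and CDC25 phosphatases remove that block. Once chromosomes are attached to the spindle at their kinetochores, the checkpoint releases CDC20, and the anaphase promoting complex marks cyclin B and securin for destruction. Many of these genes are transcribed in G2 and M phase through CHR and CCAAT elements in their promoters, which are bound by the MuvB and NF-Y complexes.

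Promoter sequences are shown for some of the members. The CHR and the CCAAT box were looked for because genes of G2 and M phase are known for them. The choice of genes by name and the choice of elements are therefore not independent. The stretches run from 120 bases before to 30 bases after a RefSeq transcription start (build GRCh38.p14), written 5′ to 3′ in the direction of transcription. Capitals mark the CHR element TTTGAA and the CCAAT box CCAAT, each in either orientation. For CDC25C and CDK1, which have 4 and 2 RefSeq windows, the stretch with the most CHR matches is shown, so their matches were part of the choice. The genes shown were picked by hand and not by a rule, so the elements in them do not stand for those of all members. The first set is from genes that stood higher in the second table.
CCNB1 (chr5:69167030-69167179, plus strand): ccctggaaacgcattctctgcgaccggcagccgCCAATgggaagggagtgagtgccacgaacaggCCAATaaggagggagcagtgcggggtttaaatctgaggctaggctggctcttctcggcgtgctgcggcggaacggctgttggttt
CCNB2 (chr15:59105026-59105175, plus strand): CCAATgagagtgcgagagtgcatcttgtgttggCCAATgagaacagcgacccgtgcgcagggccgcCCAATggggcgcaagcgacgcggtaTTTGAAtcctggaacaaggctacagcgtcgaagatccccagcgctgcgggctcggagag
CDC25C (chr5:138331775-138331924, minus strand): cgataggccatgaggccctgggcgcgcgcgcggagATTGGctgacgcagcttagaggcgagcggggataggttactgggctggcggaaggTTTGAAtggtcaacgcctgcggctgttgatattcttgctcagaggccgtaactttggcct
CDK1 (chr10:60778358-60778507, plus strand): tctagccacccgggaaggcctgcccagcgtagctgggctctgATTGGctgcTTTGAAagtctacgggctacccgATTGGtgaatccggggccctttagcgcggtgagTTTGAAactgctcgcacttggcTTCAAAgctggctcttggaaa
PRC1 (chr15:90994506-90994655, minus strand): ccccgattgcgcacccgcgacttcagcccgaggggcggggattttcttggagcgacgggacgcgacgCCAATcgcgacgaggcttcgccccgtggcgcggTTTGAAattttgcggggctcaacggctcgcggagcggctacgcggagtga
KIF11 (chr10:92593010-92593159, plus strand): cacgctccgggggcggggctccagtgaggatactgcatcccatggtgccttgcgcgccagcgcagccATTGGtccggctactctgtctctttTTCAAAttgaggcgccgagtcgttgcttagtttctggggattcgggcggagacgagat
The other set is from genes that stood lower in the second table.
PLK1 (chr16:23678769-23678918, plus strand): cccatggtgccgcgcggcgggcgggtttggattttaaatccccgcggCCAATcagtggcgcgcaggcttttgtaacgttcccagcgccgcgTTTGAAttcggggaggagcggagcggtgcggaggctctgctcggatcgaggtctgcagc
BUB1B (chr15:40160949-40161098, plus strand): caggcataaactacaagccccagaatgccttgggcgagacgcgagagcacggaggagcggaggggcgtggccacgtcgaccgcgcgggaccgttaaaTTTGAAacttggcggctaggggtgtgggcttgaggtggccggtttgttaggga
SPC24 (chr19:11155753-11155902, minus strand): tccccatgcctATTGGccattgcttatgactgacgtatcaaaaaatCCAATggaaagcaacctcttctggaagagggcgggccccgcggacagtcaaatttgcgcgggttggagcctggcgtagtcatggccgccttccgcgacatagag

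In CCNB2, CDC25C and PLK1 the CHR began 29, 30 and 29 bases before the start, downstream of a CCAAT box. BUB1B had a CHR 23 bases before the start and no CCAAT box in the stretch. CCNB1 and SPC24 had 2 CCAAT boxes each and no CHR, and CCNB2 had 3 CCAAT boxes. The position in CDC25C depends on the start used: in another of its windows the same CHR lay 44 bases after the start. CDK1 had 3 matches to the CHR in the stretch shown. Genes on either side thus included some with both elements and some with one kind.

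RefSeq promoter windows of 300 bases (250 before to 50 after a start) were matched by symbol for 27 of the 34 named genes and for all 12 kinesins of mitosis and cytokinesis. TPX2, PKMYT1, AURKA, WEE1, BUB3, UBE2C and TTK were not matched. A CHR (TTTGAA, both strands) was in a window of 17 of the 27 named genes (63.0%) and 9 of the 12 mitotic kinesins (75.0%), against 18.2% of all 27305 symbols with a window and 13.3% of the 9698 symbols that were also in both tables. A CCAAT box was in 23 of the 27 (85.2%) and 10 of the 12 (83.3%), against 39.7% of all symbols. Among symbols also in both tables its share was 43.2%. Both elements were in 14 of the 27 named genes (51.9%), against 8.37% of all. The CHR variant TTCGAA was in 3 of the 27 (BUB1, NDC80 and CDC25B), against 1.82% of all. The remaining 22 kinesin names gave 15 with a window, of which 1 held a CHR and 4 a CCAAT box, shares of 6.67% and 26.7%. The shares of the mitotic kinesins were thus close to those of the named genes. Those of the other kinesins were below the shares of all symbols, but rest on 1 and 4 of 15 genes. Whether they differ was not tested.

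The E2F-like words TTTGGCGC, TTTCCCGC, TTTGCCGC and TTTCGCGC were in 2 named genes, CDC25A and CDK1, or 7.41%, against 3.99% of all symbols and 6.72% of those also in both tables. The named genes' share was thus close to that of the listed genes. Genes with several RefSeq starts had more chances to match, with a mean of 1.33 windows for the named genes and 1.29 for all symbols. Matches to different motifs were counted separately, also where they overlapped. A match is a description of the letters and not of a bound site.

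**Figure D1:**
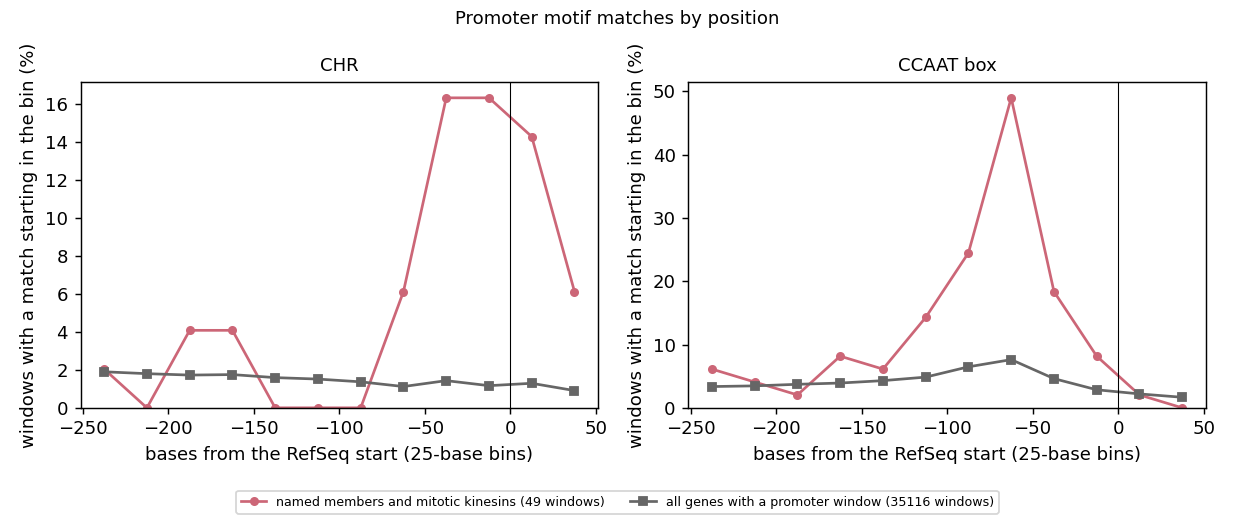
Share of promoter windows (y axis, percent) with a match that starts in each 25-base bin, by distance in bases from the RefSeq start (x axis), for the CHR (left) and the CCAAT box (right); red circles are the 49 windows of named members and mitotic kinesins and grey squares all 35116 windows. In the members, CHR matches reach 16.3% in the 2 bins just before the start and CCAAT matches 49.0% in the bin from 75 to 50 bases before it.

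The matches also had a position. In the 49 windows of named genes and mitotic kinesins, a CCAAT box began between 75 and 50 bases before the start in 24 windows (49.0%), against 7.62% of all windows. A CHR began within the 50 bases before the start in 2 bins of 8 windows each (16.3%), against 1.43% and 1.17% of all windows in the same bins. In the 100 bases around the start the CHR was in 15 of the 27 named genes (55.6%) and the CCAAT box in 9 (33.3%), against 5.77% of all symbols for the CHR and 3562 of 27305 for the CCAAT box.

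As a group the named mitotic genes stood somewhat higher in the second table. In these bulk samples, a different number of cells of a type and a different amount of RNA per cell cannot be told apart. Neither table was assigned to input or immunoprecipitate, so these cannot be told apart either. The log2 ratio used throughout is log2((second + 1)/(first + 1)), with 1 FPKM added to each value, which draws low genes towards 0. Of the 34 named genes, 26 (76.5%) were higher in the second table and 8 lower, against 54.8% higher and 45.2% lower of the 14270 genes in both tables and 57.2% higher of the 7135 genes above the median level. Their median log2 ratio was 0.34, against 0.05 for all genes. Large differences were rare. At least 2-fold higher was 1 member (2.04% of all genes) and at least 2-fold lower none of the members (1.68% of all genes). At least 1.5-fold higher were 8 members (12.2% of all genes) and at least 1.5-fold lower none (7.83% of all genes). The 2-fold limit fell between CDC25C, with a log2 ratio of 1.02, and CCNB2, with 0.96.

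Most named genes were higher in the second table both with a CHR and without one. Of the 17 with a CHR, 13 were higher in the second table, with a median log2 ratio of 0.38, and of the 10 without, 8 were higher, with a median of 0.25. Of the genes in both tables that also had a promoter window, the 1293 with a CHR were higher in 62.2% of cases. The 8415 without were higher in 57.1%, and the medians were 0.12 and 0.08. Both shares were above the 54.8% of all genes in both tables, some of which had no window. For the CCAAT box, 19 of the 23 named genes with one were higher, with a median of 0.41. Of the 4 without, 2 were higher, with a median of -0.09. Of the genes in both tables with a window, 58.4% with the box and 57.3% without it were higher. The differences between these groups were not tested.

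**Figure D2:**
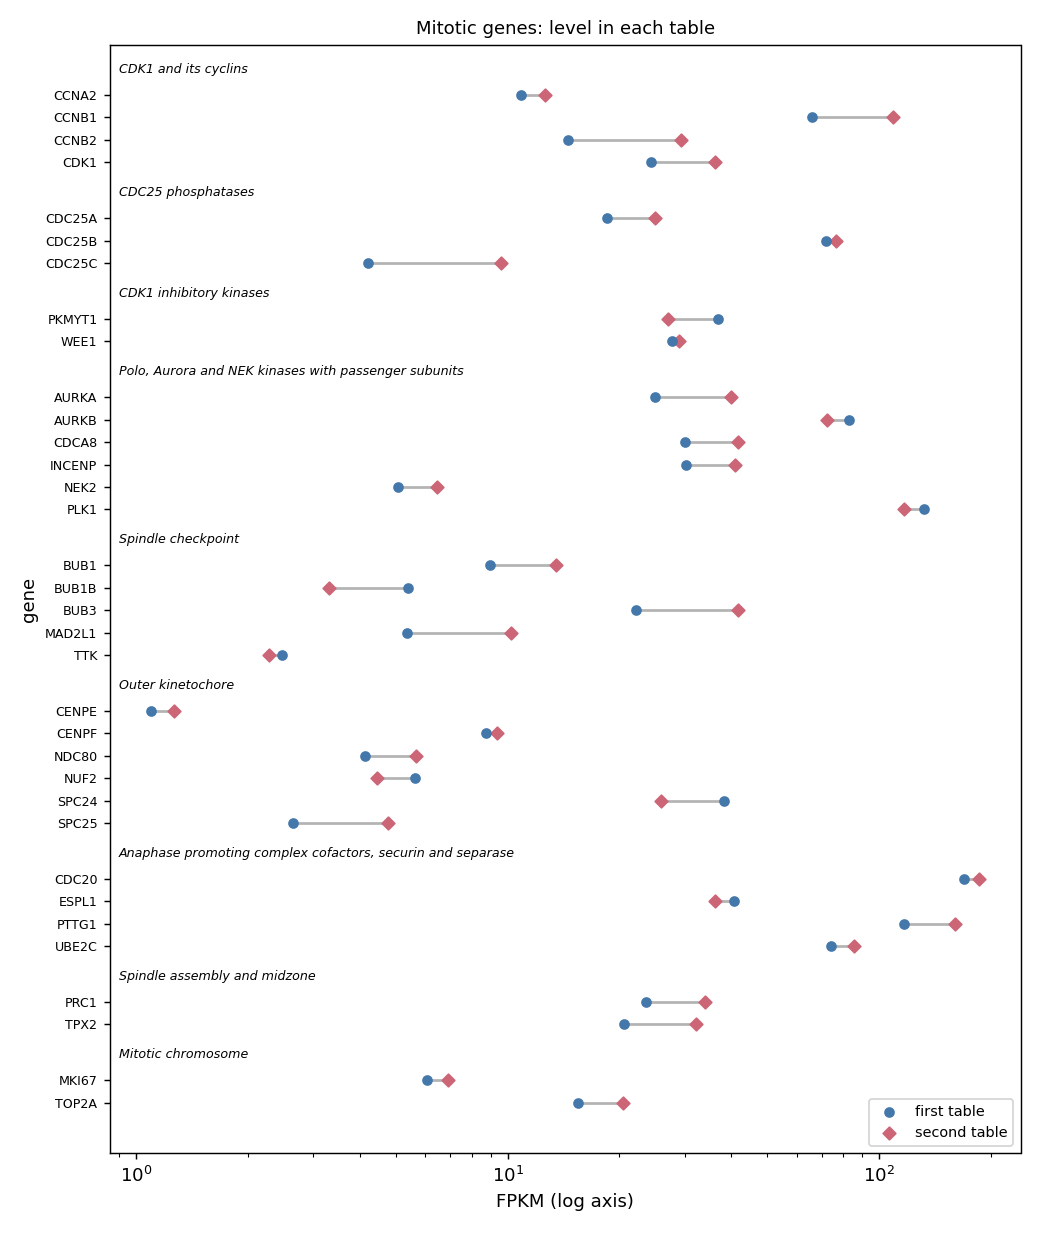
FPKM (x axis, log scale) of the 34 named genes (rows, grouped by role) in the first table (blue circles) and the second table (red diamonds), 1 value each, with a grey line joining them. CCNB1, CCNB2, CDK1 and the CDC25 genes lie further right in the second table, while BUB1B, SPC24 and PKMYT1 lie further left.

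CDK1 and its cyclins were all higher in the second table. Cyclin B1 (CCNB1; chromosome 5, 69167010 to 69178245, hg38), the main partner of CDK1 in mitosis, stood at 66.0 FPKM in the first table against 109 FPKM in the second, a ratio of 1.65 without the added 1. Cyclin B2 (CCNB2), a partner found at the Golgi, was listed at 14.5 and 29.3 FPKM, a ratio of 2.02. CDK1 (chromosome 10, 60778331 to 60794852) was listed at 24.4 and 36.0 FPKM. The 3 shifts were in 1 direction, and CCNB2 moved most. Cyclin A2 (CCNA2), which acts in S phase and early mitosis, differed less, at 10.8 and 12.6 FPKM, and shared its locus string with EXOSC9, at 4.20 and 5.86 FPKM.

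On the per-length FPKM scale, cyclin B1 stood above its kinase, with a ratio of CCNB1 to CDK1 of 2.71 in the first table against 3.03 in the second. The ratio of CCNB1 to CCNB2 was 4.54 in the first table against 3.72 in the second. A locus string gives the interval to which the authors assigned a gene, and some intervals hold several genes. That of CCNB2 was shared with MYO1E, FAM81A and RP11-59H7.3. MYO1E was listed at 27.7 and 33.5 FPKM, and FAM81A at 2.80 and 1.92 FPKM. CCNB1 and CDK1 were alone at their loci.

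The CDC25 phosphatases, which activate CDK1, formed a series in level, CDC25B above CDC25A above CDC25C, in both tables. CDC25B, which starts the activation of CDK1 at the centrosome, was listed at 72.1 and 76.6 FPKM. CDC25A, which also acts at the G1 to S transition, was listed at 18.6 and 24.99 FPKM. CDC25C, a substrate of PLK1 and of the checkpoint kinases, was listed at 4.20 and 9.58 FPKM, a ratio of 2.28. The gap narrowed with the order unchanged: CDC25B was 17.1 times CDC25C in the first table and 7.998 times in the other. CDC25C shared its locus string with FAM53C, which was listed at 23.5 and 23.3 FPKM.

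The kinases that oppose CDC25 were nearly level or lower in the second table. WEE1, which phosphorylates CDK1 in the nucleus, stood at 27.6 and 28.9 FPKM, with a log2 ratio of 0.06. PKMYT1, its counterpart at membranes, stood at 36.8 and 26.9 FPKM, with a log2 ratio of -0.44. WEE1 stood below PKMYT1 in the first table, with a ratio of 0.75, and slightly above it in the second, with 1.07. PKMYT1 shared its locus string with PAQR4, listed at 52.5 and 33.4 FPKM, and KREMEN2, at 4.26 and 2.02 FPKM, both also lower in the second table.

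The mitotic kinases divided. PLK1, the Polo kinase that promotes entry and spindle assembly, was among the most abundant members and was listed at 132 and 116 FPKM, sharing its locus string with ERN2, which was in the first table only at 0.72 FPKM. Aurora B (AURKB), the kinase of the chromosomal passenger complex, was listed at 83.1 and 72.5 FPKM. Aurora A (AURKA), which matures centrosomes, was listed at 24.95 and 40.0 FPKM. The first pair was slightly lower in the second table and AURKA higher, so that AURKB was 3.33 times AURKA in the first table and 1.81 times in the second. NEK2, a centrosome kinase, was listed at 5.08 and 6.46 FPKM.

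The passenger complex also holds INCENP, the scaffold that activates Aurora B, and borealin (CDCA8), which targets it to centromeres. INCENP was listed at 30.2 and 40.9 FPKM and CDCA8 at 30.03 and 41.6 FPKM. These scaffold subunits lay at nearly equal FPKM in each table, with a ratio of INCENP to CDCA8 of 1.00 in the first table against 0.98 in the second. Survivin (BIRC5), the remaining subunit and not one of the named genes, was listed at 77.2 and 93.9 FPKM. Thus 3 subunits were higher in the second table and the kinase was lower.

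Spindle checkpoint genes had the widest spread of any role group with at least 5 genes, from -0.57 to 0.88 on the log2 ratio scale. BUB3, which docks checkpoint proteins at kinetochores, was listed at 22.2 and 41.6 FPKM, a ratio of 1.87. MAD2L1 (MAD2), which binds and holds CDC20, was listed at 5.36 and 10.2 FPKM, a ratio of 1.90. BUB1, the kinetochore kinase that recruits other checkpoint proteins, was listed at 8.97 and 13.5 FPKM. These 3 were higher in the second table by 1.5-fold or more without the added 1. BUB1B (BUBR1), the partner of MAD2 and BUB3 in the inhibitor of CDC20, went the other way, with 5.38 FPKM in the first table against 3.31 FPKM in the second.

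The ratio of BUB3 to BUB1B was thereby 4.13 in the first table against 12.6 in the second. The locus string of BUB1B held 5 identifiers, among them PAK6, listed at 1.497 and 1.56 FPKM. TTK (MPS1), the kinase at the top of the checkpoint, was near the bottom of the members, at 2.47 and 2.27 FPKM. BUB1, BUB3, MAD2L1 and TTK were alone at their loci.

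Among outer kinetochore genes, the 4 subunits of the NDC80 complex, which binds microtubules, did not move together. NDC80 was listed at 4.14 and 5.67 FPKM and its partner NUF2 at 5.63 and 4.45 FPKM. The inner pair differed more: SPC24 was listed at 38.3 and 25.9 FPKM and SPC25 at 2.65 and 4.77 FPKM. SPC24 and NUF2 were lower in the second table and NDC80 and SPC25 higher. Although the subunits form a complex with 1 copy of each, SPC24 was 14.5 times SPC25 on the FPKM scale in the first table and 5.42 times in the second.

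SPC25 shared its locus string with CERS6, NOSTRIN and CERS6-AS1, of which CERS6 was listed at 2.48 and 3.43 FPKM. NUF2 shared its own with RGS5, which had 2 identifiers. These were listed at 0.22 and 1.88 FPKM and at 0.22 and 1.39 FPKM, both higher in the second table, unlike NUF2. The motor CENPE, which carries chromosomes to the spindle equator, was the lowest of the 34 named genes, at 1.10 and 1.27 FPKM. CENPF, a large protein of the kinetochore corona, was listed at 8.74 and 9.36 FPKM.

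The cofactors of the anaphase promoting complex and their targets were the most abundant role group. CDC20, the activator that the checkpoint restrains, was the highest of the 34, at 169 and 186 FPKM, above 97.8% and 98.2% of the genes listed in each table. Securin (PTTG1), the inhibitor of separase that the complex destroys, was listed at 117 and 160 FPKM. UBE2C, the ubiquitin-conjugating enzyme of the complex, was listed at 74.0 and 85.6 FPKM. These 3 were higher in the second table and were alone at their loci. Separase (ESPL1), the protease that opens cohesin, was slightly lower there, at 40.8 and 36.2 FPKM, and the ratio of securin to separase was 2.87 in the first table against 4.42 in the second. PTTG2 and PTTG3P, close copies of PTTG1 whose fragments could be divided with it, were in neither table.

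Spindle and chromosome proteins were higher in the second table. TPX2, which activates Aurora A and nucleates microtubules, was listed at 20.6 and 32.1 FPKM. PRC1, which bundles microtubules at the midzone, was listed at 23.6 and 33.99 FPKM. Topoisomerase II alpha (TOP2A), which untangles sister DNA, was listed at 15.5 and 20.5 FPKM, while its paralog TOP2B, which is not restricted to dividing cells, was listed at 11.8 and 8.41 FPKM. MKI67, the Ki-67 protein that coats mitotic chromosomes, differed little, at 6.06 and 6.91 FPKM.

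The order of levels among the members was largely the same in the tables. Across the 34 named genes, which are not replicates, the levels as log2(FPKM + 1) correlated between the tables at 0.967 (Pearson) and 0.928 (Spearman), against 0.972 and 0.961 across all 14270 genes. The 34 genes summed to 1152 FPKM in the first table against 1356 FPKM in the second. Of these, 29 genes lay above the median mean level of 4.93 FPKM.

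Kinesins are motors that walk along microtubules or take them apart. Those that serve mitosis and cytokinesis stood a little higher in the second table as a group, while the others were close to the genes at large. Of the 12 mitotic kinesins, 10 (83.3%) were higher in the second table, with a median log2 ratio of 0.18 and a range from -0.05 to 0.36. Of the 19 other names in both tables, 10 (52.6%) were higher, with a median of 0.00 and a range from -0.75 to 0.54. The lowest of these was KIF2A, which acts at spindle poles. The shares and ranges of both groups thus depend on placing it among the other names. The share of all genes that were higher was 54.8%, with a median of 0.05, so the other names were close to all genes. Among kinesins with a mean of at least 10 FPKM the mitotic median fell to 0.066 and that of all kinesin names to -0.035. No kinesin name differed by 2-fold on the log2(FPKM + 1) scale. Scaled to equal totals without 5 abundant noncoding RNAs, KIFC1 turned from lower to higher in the second table.

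**Figure D3:**
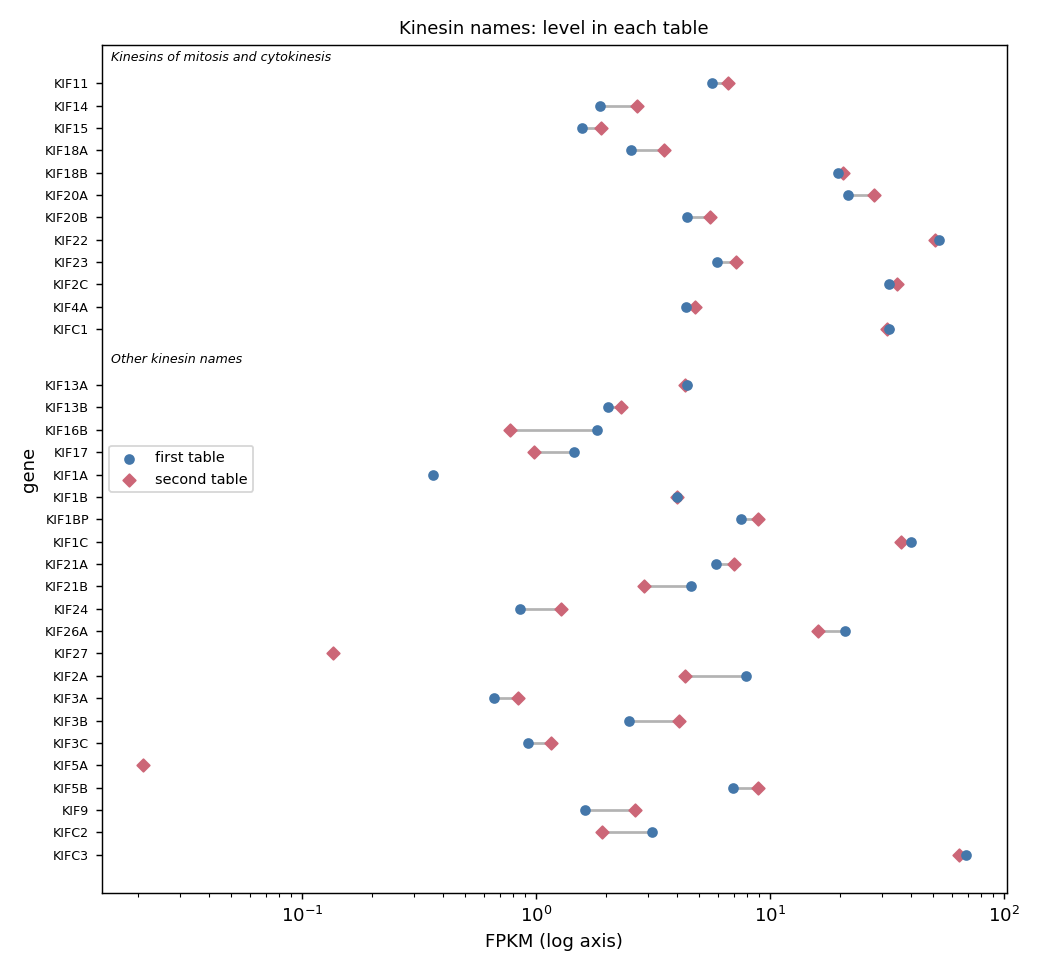
FPKM (x axis, log scale) of the 34 kinesin names (rows) in the first table (blue circles) and the second table (red diamonds), 1 value each, mitotic kinesins above and other names below. The mitotic kinesins sit close together in the tables, and KIF2A, KIF16B, KIF21B and KIFC2 lie further left in the second table.

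The most abundant mitotic kinesin was KIF22, a chromosome arm motor, at 52.7 and 50.8 FPKM. KIFC1, a motor that focuses spindle poles, was listed at 32.2 and 31.8 FPKM, and KIF2C (MCAK), which takes apart misattached microtubules, at 32.2 and 34.8 FPKM. Their log2 ratios ran from -0.05 for KIF22 to 0.11 for KIF2C. KIF20A, needed for cytokinesis, was listed at 21.5 and 27.8 FPKM, and KIF18B, which shortens astral microtubules, at 19.5 and 20.5 FPKM.

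KIF11 (Eg5), which pushes spindle poles apart, was listed at 5.65 and 6.65 FPKM, and KIF15, which can stand in for it, at 1.58 and 1.89 FPKM. KIF23, the motor of centralspindlin, was listed at 5.94 and 7.15 FPKM, KIF4A, a partner of PRC1, at 4.38 and 4.76 FPKM, and KIF20B at 4.41 and 5.53 FPKM. KIF14, which acts in the midbody, had the highest log2 ratio of the 12, 0.36, at 1.88 and 2.71 FPKM. KIF18A, which damps chromosome movement, was close to it, at 2.54 and 3.53 FPKM. All 7 were higher in the second table as deposited, but against the median of genes with a like number of neighbours KIF4A turned to -0.07, and KIF22 turned from lower to 0.07. KIF18A, KIF23, KIF4A, KIF15, KIF20A and KIF2C shared their locus strings with another gene.

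Among the other names, 3 reached 10 FPKM. KIFC3, a motor of cell junctions and endosomes, was the most abundant of all kinesins, at 68.6 and 64.0 FPKM. KIF1C, a motor for long-range transport, was listed at 40.0 and 36.3 FPKM, and KIF26A, which lacks motor activity, at 21.0 and 16.0 FPKM. All 3 were lower in the second table.

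At least 1.5-fold lower there were KIF2A, which takes apart microtubules at spindle poles, at 7.94 and 4.32 FPKM, and the endosome motor KIF16B, at 1.82 and 0.78 FPKM. These 2 of 31 names stand beside 7.83% of all genes, a like share, and 0 names were at least 1.5-fold higher, against 12.2% of all genes. Both counts are on the log2(FPKM + 1) scale and depend on the added 1. Without it, KIF3B (1.64), KIF9 (1.63) and KIF24 (1.51) were over 1.5-fold higher in the second table. KIFC2 (1.64) and KIF21B (1.58) were then also over 1.5-fold lower. KIF2A and KIF16B are named because the count is small, after their values were seen. KIF2A is itself active at spindle poles but was not in the list of mitotic kinesins. It shared its locus string with DIMT1, IPO11 and LRRC70. At the other end stood KIF3B, a subunit of the kinesin-2 motor of cilia, at 2.50 and 4.10 FPKM. The remaining names in both tables, none above 8.92 FPKM, ranged in log2 ratio from -0.52 for KIF21B, at 4.60 and 2.91 FPKM, to 0.47 for KIF9, at 1.62 and 2.64 FPKM, with KIF5B, the conventional kinesin heavy chain, at 6.95 and 8.89 FPKM. KIF1A was listed in the first table only, at 0.36 FPKM, and KIF5A and KIF27 in the second only, at 0.02 and 0.14 FPKM. Such low values in a single table are not read as a difference.

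The other genes of the pathway were examined as 7 lists. The lists that act in mitosis had medians above that of all genes: 0.23 for other spindle and cytokinesis genes (20 of 26 higher), 0.26 for other kinetochore genes (18 of 28), 0.24 for cohesin and condensin (13 of 18) and 0.18 for the subunits of the anaphase promoting complex (10 of 17). The share of all genes that were higher was 54.8%, and the 58.8% of the anaphase promoting complex was close to it. Other regulators of CDK1 had a median of 0.11, with 10 of 13 higher. Genes of G1 and S phase entry had a median of 0.05, the value of all genes, with 12 of 22 higher (54.5%). The MuvB, B-MYB and FOXM1 regulators of these promoters had a median of 0.03, with 9 of 13 higher. Whether these medians differ from each other was not tested.

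**Figure D4:**
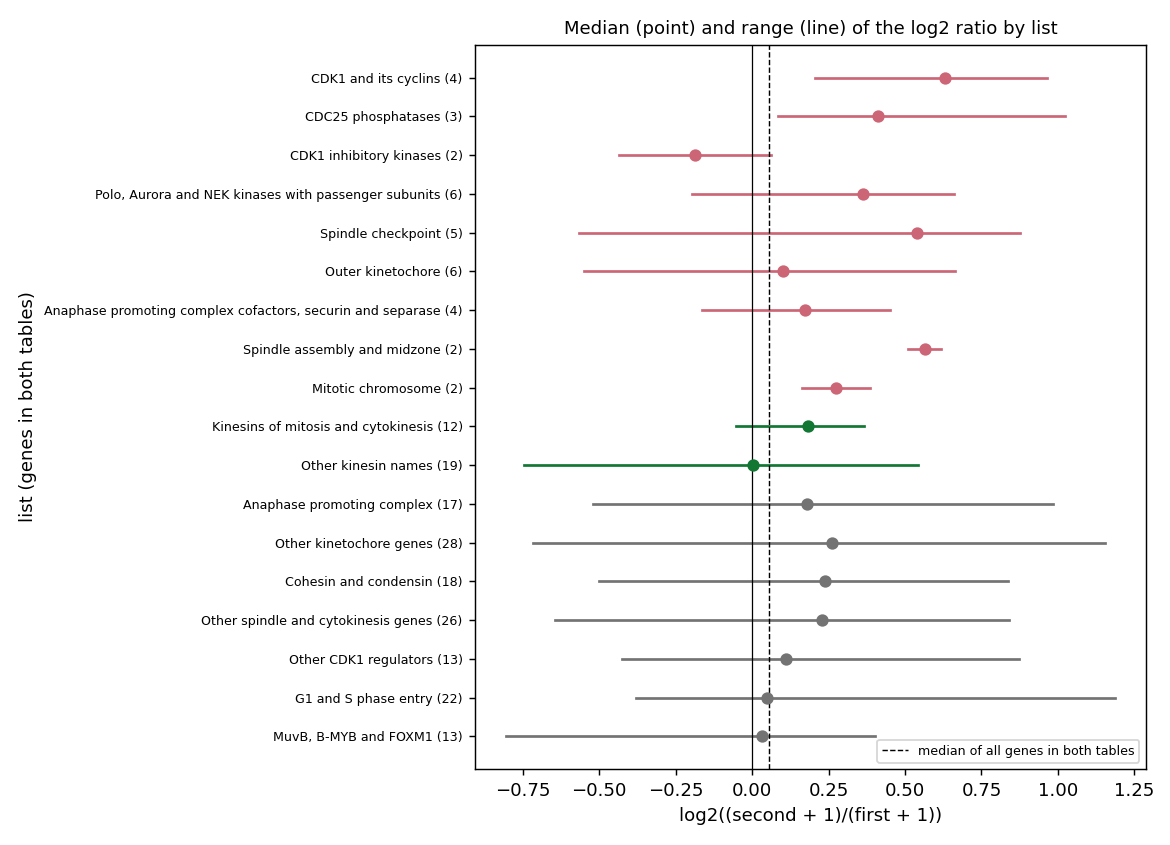
Median (point) and range (line) of the log2 ratio of the second over the first table (x axis) for each role group of the named genes (red), the kinesins (green) and the 7 other lists (grey), with the number of genes in both tables in brackets. The dashed line is the median of all genes, 0.05, and the highest medians are those of CDK1 and its cyclins (0.63), the spindle assembly genes (0.56) and the spindle checkpoint (0.54).

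Within these lists the extremes among genes with a mean of at least 5 FPKM were modest. Of the genes named from them, ANLN, NUMA1, CENPL, ANAPC11, ANAPC13, CDC27, NCAPD3, STAG1 and RAD21 shared their locus strings with other identifiers. So did CDC14B, CCNH, CDK6, CCND1 and RBBP4. Anillin (ANLN), which organises the cleavage furrow, was listed at 14.97 and 27.6 FPKM, and CEP55, which acts at abscission, at 3.43 and 6.72 FPKM, against 9.35 and 5.62 FPKM for HAUS5, an augmin subunit, and 44.6 and 40.6 FPKM for the spindle pole protein NUMA1. Among the kinetochore genes CENPL was listed at 7.38 and 13.7 FPKM and ZWINT at 31.9 and 50.8 FPKM, whereas CENPW was listed at 11.8 and 6.80 FPKM and KNTC1 at 8.45 and 6.06 FPKM. Members of a list thus lay on both sides.

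Among subunits of the anaphase promoting complex, ANAPC13 was listed at 7.18 and 15.2 FPKM and CDC27 at 8.24 and 14.2 FPKM, and ANAPC2 at 38.7 and 28.9 FPKM and ANAPC11 at 73.1 and 57.5 FPKM. ANAPC2 and ANAPC11, which form the catalytic core, were both lower in the second table. They were named because they had the 2 lowest ratios of their list at this level. Up to 1 Mb away, 82 and 79 listed genes started. All genes with 45 to 122 such neighbours had a median log2 ratio of -0.12. In cohesin and condensin, PDS5A, a cohesin regulator, was listed at 4.70 and 9.19 FPKM and the condensin II subunit NCAPD3 at 19.0 and 27.9 FPKM, against 6.50 and 4.85 FPKM for STAG1 and 25.6 and 22.0 FPKM for RAD21, both cohesin subunits.

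ARPP19, an inhibitor of the phosphatase that reverses CDK1 phosphorylation, was listed at 10.98 and 20.9 FPKM, and CDK7, the kinase that activates CDK1, at 5.70 and 9.74 FPKM. The partner of CDK7, cyclin H (CCNH), was listed at 7.87 and 7.69 FPKM and CDC14B at 6.24 and 6.07 FPKM, nearly level in the tables, and CCNH turned from lower to level (0.00) when totals were made equal without 5 noncoding RNAs. Of the G1 genes, CDK6 was listed at 23.2 and 34.8 FPKM and CCND1 at 16.4 and 23.7 FPKM. CCND3 was listed at 122 and 93.6 FPKM and the licensing factor CDT1 at 60.8 and 49.2 FPKM. Cyclin D1 and cyclin D3 thus lay on opposite sides.

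The abundant regulators of these promoters differed little. B-MYB (MYBL2) was listed at 156 and 158 FPKM and FOXM1, added after its values were seen and sharing its locus string with other identifiers (8 in all), at 49.6 and 55.3 FPKM. RBBP4 was listed at 41.0 and 48.7 FPKM, E2F4 at 40.5 and 47.2 FPKM and TFDP2 at 6.71 and 6.21 FPKM. MYBL2 changed sign, to -0.04, when ratios were centred on the median of all genes.

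The lower members shared a locus more often than the higher ones. Of the 8 named genes that were lower in the second table, 5 (62.5%) shared their locus string with another identifier (PLK1, BUB1B, NUF2, SPC24 and PKMYT1), against 4 of the 26 that were higher (15.4%). Among all genes in both tables the shares were 48.8% of the lower and 45.0% of the higher. Of the 25 members alone at their loci 22 were higher, with a median of 0.38, and of the 9 sharing a locus 4 were higher, with a median of -0.18. The authors' counting could divide fragments at such loci, and the part of this in the ratios was not tested.

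The lower members also had more neighbours. Counting the listed genes that start up to 1 Mb away gave a median of 47.5 for the 8 lower members and 16.5 for the 26 higher, against 28 and 18 for lower and higher genes overall. Across the 34 members, which share the 2 tables, the log2 ratio correlated with that number at -0.49 (Pearson) and -0.36 (Spearman), against -0.24 and -0.25 across all genes. In the class of genes with the most neighbours, 45 to 122, the median log2 ratio of all genes was -0.12, and 2 of 6 members there were higher (CDC25A and INCENP), close to the 37.1% of all genes there. In the class with the fewest, 0 to 10, the median of all genes was 0.20, and 8 of 10 members were higher, against 66.6% of all genes.

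**Figure D5:**
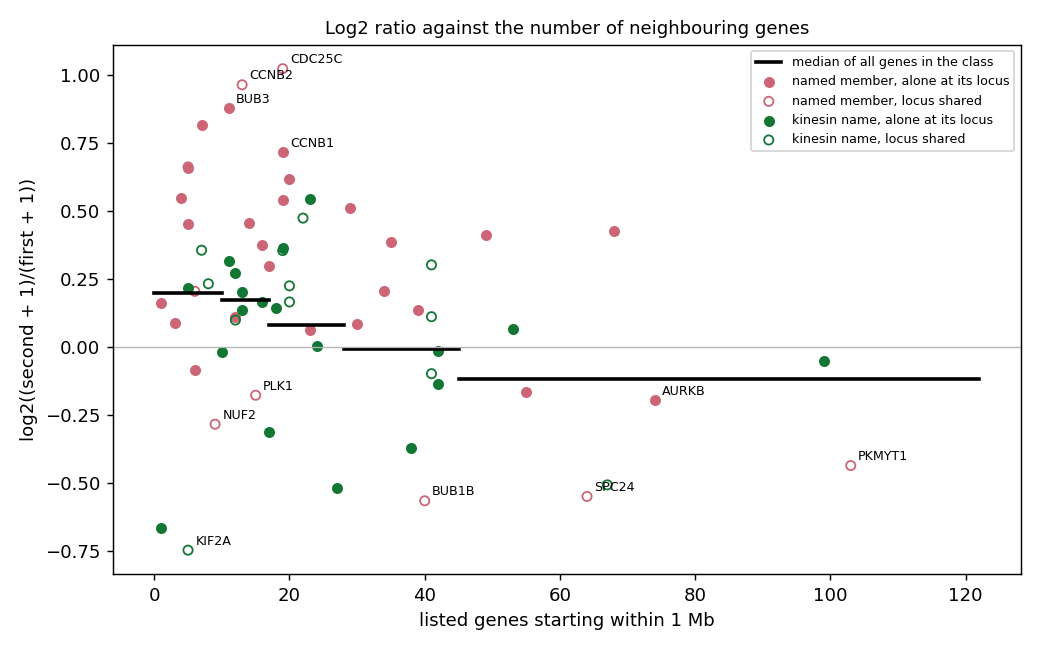
Log2 ratio of the second over the first table (y axis) against the count of listed genes that start up to 1 Mb away (x axis) for named members (red) and kinesin names (green), filled where alone at the locus and open where the locus is shared; black bars are medians of all genes in 5 classes of equal size. The class medians run from 0.20 at few neighbours to -0.12 at many, and CDC25C, CCNB2, BUB3 and CCNB1 lie well above the bars.

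Measured against the median of their own neighbour class, 22 of the 34 members were above it and 12 below, with a median difference of 0.22. For the kinesin names 17 of 31 were above and 14 below, with a median difference of 0.03. MKI67, CENPE, CENPF and WEE1, which had the smallest positive ratios but for CDC25B and CDC20, lay below their class median. Mean level and gene length had Spearman correlations near 0 with the ratio among the members, at -0.01 and 0.07.

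Over the whole tables, the first listed 15167 genes and the second 16824, and 2554 were in the second only, with a median of 0.19 FPKM. Sequencing depth, not given in the sources used here, is unknown. DNMT1, the target of the hairpin, was listed at 23.3 and 9.36 FPKM and NSUN2 at 559 and 1147 FPKM. Of 9 osteoblast markers, 2 were in the first table and 5 in the other. ALPL stood at 78.4 and 38.0 FPKM and COL1A1 at 3.04 and 0.45 FPKM. RUNX2, BGLAP and SPARC were in the second only, at 0.81, 0.14 and 0.03 FPKM. SP7, IBSP, SPP1 and COL1A2 were in neither. Of 8 markers of blood, endothelial and epithelial cells, 3 and 4 were listed, the highest being CDH1 at 8.42 and 0.39 FPKM. Their part in the members' values was not tested.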

How the data were processed

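The 6 samples are described in the labels, and 2 deposited tables of FPKM per gene were analysed. FPKM values were computed by the authors, per the file headers, with a tool not given in the sources used here. Programs listed in the submitters' processing notes are cutadapt 1.12, BWA 0.7.13, and MACS 1.4.2, with no role for each, and the build named there is hg38. Because FPKM is relative, abundant RNAs can move the values of other genes. Tables were joined by gene identifier. A log2 ratio was computed from FPKM with a pseudocount of 1 for genes in both tables, with no level filter. Locus starts were counted from 0, and adding 1 made 1549 starts of genes alone at a locus equal to RefSeq, against 121 without. Genes were named by rule: every named member, every mitotic kinesin, kinesins at 10 FPKM or 2-fold different, and the 2 highest and 2 lowest ratios per other list at a mean of 5 FPKM or more. Other kinesins were added as examples. The members, lists and thresholds were chosen with earlier results of these data known, and the 1.5-fold limit and the neighbour classes after the values were seen. The planned search for protein motifs was not run, as protein sequences were not used here, nor was the planned comparison of sample groups. Promoter windows were RefSeq (GRCh38.p14). The functions for the ratio and its counts were run on values given a known shift without noise, which checks their arithmetic only. Python 3.11.15, pandas 2.3.3, numpy 2.4.6, scipy 1.17.1 and matplotlib 3.10.9 were used.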

Additional observations from a re-analysis of the deposited data

How the results depend on the processing

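No paired analysis was possible because neither table names a sample or replicate, so neither a replicate block nor leaving out a replicate could be run. With a pseudocount of 0.1 FPKM, 2 members stood 2-fold or more above the first table and 1 at least 1.5-fold below. At a mean of at least 10 FPKM, 0 members were at least 2-fold higher and 5 at least 1.5-fold higher, the mitotic kinesin median was 0.066, and the median of all kinesin names turned to -0.035 with 37.5% of 8 higher. Among genes alone at their locus, 0 and 5 members were 2-fold and 1.5-fold higher. The last 2 settings test fewer genes by construction. With the overall median subtracted from each ratio, 0 members were 2-fold higher and 2 were 1.5-fold lower. With ratios taken against the neighbour class, a setting chosen after seeing the data, the members' median was 0.22, 0 and 5 members were 2-fold and 1.5-fold higher, and the kinesin median was 0.031. In the 100 bases around the start the CCAAT share was 33.3%. Members higher in the second table ran from 22 of 34 against the neighbour class to 22 of 25 alone at their locus, and their median from 0.22 to 0.41. Of 68 other recomputed values for the groups, all stayed within 1.5 times, 0.1 on the log2 scale or the binomial interval. That interval treats genes as replicates and is wide for small groups, so staying inside these limits does not show stability. For example, 83.3% of the 12 mitotic kinesins were higher, but 60% of the 5 that averaged 10 FPKM or more. The median of the 12 was 0.184 in the main setting and 0.092 against the neighbour class. Both changes lay inside the limits. With 1 value per table and depth unknown, no error can be put on any single gene.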

Other observations

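CHR matches also occurred in other lists of the pathway, in windows of 300 bases. A CHR was in 12 of 23 other spindle and cytokinesis genes (52.2%), 8 of 16 cohesin and condensin genes, 9 of 23 other kinetochore genes (39.1%) and 5 of 17 subunits of the anaphase promoting complex (29.4%), against 18.2% of all symbols. Genes of G1 and S phase entry differed in the letters they held: 1 of 17 had a CHR (5.88%) and 10 of 17 an E2F-like word (58.8%), against 3.99% of all symbols. Of the cyclins and Polo kinases related to members but outside the list, PLK2 was listed at 7.48 and 15.3 FPKM and PLK4 at 1.64 and 2.01 FPKM, while cyclin A1 (CCNA1) was in the second table only, at 0.35 FPKM.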
